A study of Mus musculus with 69 samples.

Results

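Cyp2d9, Nat8, Hsd3b5, Elovl3 and Nudt7 are autosomal liver genes whose signal was higher in control males than in control females, and they are followed here through the livers of old C57BL6/J mice fed control or rapamycin (Rapa) diet. The genes were chosen by their measured difference between control males and control females on these same arrays, so that difference is a description and carries no test. They account for 6 probes, 2 of them for Nudt7, of 25697 on the array, and all 6 were among the 12442 probes tested. One array was run per mouse for 69 mice aged 25 months. There were 19 control males, 16 control females and 21 Rapa females. The 13 Rapa males carry the titles Rapa-1 (n = 7) and Rapa-2 (n = 6). Rapa mice ate 14 ppm rapamycin, which inhibits the growth-controlling kinase mTOR, for 21 months from 4 months of age, and control mice ate the diet with only the polymer that encapsulates the drug. All groups share the strain, the age and the tissue, and no transgene or deletion is involved. The study drew the division into Rapa-1 and Rapa-2 from the expression values of these arrays, so p-values for either title are descriptive.

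Many genes of the rodent liver differ between the sexes because the pituitary releases growth hormone in separated pulses in males and more continuously in females. Each pulse activates the transcription factor STAT5b in hepatocytes, and in mice the repressors BCL6 and CUX2 favour the male and the female program, respectively. Male-higher genes of this kind encode enzymes of steroid, drug and lipid metabolism, and their expression follows the hormone pattern and age. The 5 genes have separate tasks within this program. Cyp2d9 is a cytochrome P450 that hydroxylates testosterone. Hsd3b5 belongs to the hydroxysteroid dehydrogenases and reduces ketosteroids. Nat8 encodes an acetyltransferase of the endoplasmic reticulum that acts on cysteine conjugates. Elovl3 elongates very long chain fatty acids. Nudt7 hydrolyses coenzyme A and its esters in peroxisomes.

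Of the 5 genes, 4 matched the RefSeq promoter table (GRCm38.p6), with 6 start sites in all. The 250 bases upstream of the starts of Cyp2d9, Nat8 and Hsd3b5, the ones with a motif match, are shown 5′ to 3′, as the sequence in front of the genes whose levels are described below. Capitals mark the matches found, which are a TATA box (TATAAA) for Cyp2d9, an HNF1 motif (GTTAAT) for Nat8 and a FOXA motif (TGTTTNC) for Hsd3b5, read on either strand. Cyp2d9 lies on the plus strand at chr15:82452127-82452376, Nat8 on the minus strand at chr6:85832280-85832529 and Hsd3b5 on the minus strand at chr3:98645535-98645784.
Cyp2d9: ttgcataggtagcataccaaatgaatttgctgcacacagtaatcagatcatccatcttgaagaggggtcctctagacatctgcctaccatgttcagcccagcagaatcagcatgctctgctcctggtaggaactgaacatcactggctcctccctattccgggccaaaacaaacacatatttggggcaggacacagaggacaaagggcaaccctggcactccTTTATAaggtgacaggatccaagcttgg
Nat8: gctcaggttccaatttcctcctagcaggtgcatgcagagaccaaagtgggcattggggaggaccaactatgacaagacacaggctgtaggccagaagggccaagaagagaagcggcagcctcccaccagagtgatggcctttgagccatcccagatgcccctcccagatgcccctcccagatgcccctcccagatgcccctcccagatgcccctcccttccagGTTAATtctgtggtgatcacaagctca
Hsd3b5: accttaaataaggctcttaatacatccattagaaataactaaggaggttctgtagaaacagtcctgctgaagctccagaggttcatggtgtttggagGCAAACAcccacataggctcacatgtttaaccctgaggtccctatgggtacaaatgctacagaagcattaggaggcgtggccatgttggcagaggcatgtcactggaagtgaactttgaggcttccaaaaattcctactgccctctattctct

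The TATA box of Cyp2d9 lay at -28 to -23 from the start and 12.4% of all 32851 promoters of that length held the same letters. The HNF1 motif of Nat8 was found in 6.43% and the FOXA motif of Hsd3b5 in 17.8% of them. The STAT5 motif (TTCNNNGAA), held by 7.02% of all promoters, occurred in 0 of the 6 promoters of these genes. The motifs of HNF6 (ATTGAT), C/EBP (TTGCNNAA) and a nuclear receptor element (AGGTCA) also occurred in 0 of 6, and no match overlapped another. A missing match says only that these letters are not in this window. Elovl3 is named only.

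Array brightness differed between the groups before scaling. The median raw signal of an array averaged 129.96 ± 10.6 (SD, n = 19) in control males, 124 ± 5.37 (n = 7) in Rapa-1 and 89.0 ± 4.23 (n = 6) in Rapa-2 males, and it averaged 104 ± 7.85 (n = 16) in control and 102 ± 7.26 (n = 21) in Rapa females. Control and Rapa animals of a sex carry separate ranges of numbers, so diet and number order cannot be told apart. Rapa-1 and Rapa-2 males also carry separate consecutive numbers, so these titles and number order cannot be told apart either. Of 7 tested hepatocyte markers, 6 were detected in every group, while the Alb probe, for albumin, was detected on 4 of 19 control male arrays and 0 of 6 Rapa-2 arrays. The Alb probe read near background already in control males, with a mean of 6.78 beside 15.26 for Apoa1. Its low readings are therefore not taken as a change in albumin or in hepatocytes. In bulk liver fewer cells of a type and less RNA per cell cannot be told apart. Values below are quantile-normalized log2 signals unless a raw signal is named, and a probe counts as detected on an array at a detection p under 0.05. Cyp2d9, Nat8 and Hsd3b5 have close relatives in the mouse genome, and signal of these relatives at the same probes was not tested.

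Cyp2d9 was detected in every mouse, with a wide gap between the sexes. In control males its log2 signal ran from 12.11 through a median of 13.58 to 14.04, and in control females from 6.97 through 8.14 to 8.65. The 7 Rapa-1 males gave 12.85, 13.94, 12.98, 12.54, 11.77, 13.90 and 14.04, and the 6 Rapa-2 males gave 13.26, 12.91, 13.37, 12.96, 13.44 and 13.78. Rapa females ranged from 7.21 through 8.39 to 10.11. No male of any group reached down to the highest female. The probe was detected on all 69 arrays, and its mean was 42.4-fold higher in control males than in control females. The order of the means was control male (13.40 ± 0.61 SD), Rapa-2 (13.28 ± 0.32), Rapa-1 (13.15 ± 0.86), Rapa female (8.58 ± 0.81) and control female (7.99 ± 0.56), and the 3 male groups did not differ beyond their spread.

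Nat8 was detected on every male array. Its log2 signal ran from 8.51 through 10.20 to 10.82 in control males. Rapa-1 males gave 11.19, 10.46, 10.30, 9.89, 8.99, 10.93 and 10.56, and Rapa-2 males gave 9.42, 9.28, 9.74, 8.69, 10.05 and 9.74. Each Rapa-2 male lay below the Rapa-1 mean, though the ranges overlapped. Control females ran from 6.54 through 6.76 to 7.35 with the probe detected on 7 of 16 arrays, and Rapa females ran from 6.39 through 6.60 to 6.76 with it detected on 0 of 21. The measured means of control males and control females differed 9.43-fold, with 9 of the 16 female arrays not above background. The mean fell in the order Rapa-1 (10.33 ± 0.73 SD), control male (10.05 ± 0.66), Rapa-2 (9.49 ± 0.48), control female (6.81 ± 0.23) and Rapa female (6.59 ± 0.11). Neither Rapa-1 and control males nor control and Rapa-2 males differed beyond their spread.

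Hsd3b5 was the most variable of the genes in each male group. In control males it ran from 6.58 through 7.39 to 11.69 and was detected on 12 of 19 arrays, and its SD of 1.54 was exceeded by only 0.0884% of the tested probes. Rapa-1 males gave 9.63, 11.27, 7.50, 6.64, 6.65, 10.38 and 10.99, and the 2 lowest of these were not detected. Rapa-2 males gave 10.04, 8.37, 8.25, 7.17, 10.87 and 12.34, all detected. In females the probe was detected on 0 of 16 control and 2 of 21 Rapa arrays, the higher of which read 7.76. The lowest males thus read at the level of undetected females, and 14 of 19 control males lay above the highest control female. Control males were at least 1.94-fold above control females, taking undetected females at the lowest detected signal of their array. The male means were 7.85 ± 1.54 (SD) in control, 9.01 ± 2.03 in Rapa-1 and 9.50 ± 1.92 in Rapa-2 males, in that order upward, and neighbours differed by less than 1 SD.

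Elovl3 behaved like Hsd3b5 in its detection. Control males ran from 6.51 through 7.71 to 9.04, detected on 16 of 19 arrays. Rapa-1 males gave 7.81, 8.11, 6.87, 6.53, 6.63, 9.25 and 9.29, with the probe not detected on 3 of 7, and Rapa-2 males gave 8.43, 8.68, 8.71, 7.29, 9.48 and 9.14, all detected. No female array of either diet detected it, and the female readings stayed between 6.40 and 6.83. Control males were at least 1.87-fold above control females, with 16 of 19 above the highest control female. Rapa-2 (8.62 ± 0.75 SD) stood above control males (7.80 ± 0.82) and Rapa-1 males (7.79 ± 1.17), which overlapped almost fully.

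Nudt7 was detected everywhere by its brighter probe. Control males ran from 11.61 through 12.91 to 13.62 and control females from 10.49 through 11.88 to 12.81. Rapa-1 males gave 13.17, 12.97, 13.14, 13.05, 11.56, 13.63 and 13.39. Rapa-2 males gave 13.41, 13.95, 13.60, 12.64, 14.10 and 13.91, of which only 1 read below the control male mean of 12.93. Rapa females ran from 11.55 through 12.42 to 12.80. The sexes overlapped, since 12 of 19 control males lay above the highest control female and the mean difference was 2.06-fold. The order of the means was Rapa-2 (13.60 ± 0.53 SD), Rapa-1 (12.99 ± 0.67), control male (12.93 ± 0.59), Rapa female (12.33 ± 0.31) and control female (11.89 ± 0.63), where Rapa-1 and control males did not differ beyond their spread. The other Nudt7 probe was dimmer, with means of 7.97 ± 0.43 in control males and 7.15 ± 0.26 in control females, and it followed the first with r = 0.90 over the control males, 0.92 over the control females, 0.89 over Rapa-1, 0.77 over Rapa-2 males and 0.65 over the Rapa females, as a description.

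**Figure D1:**
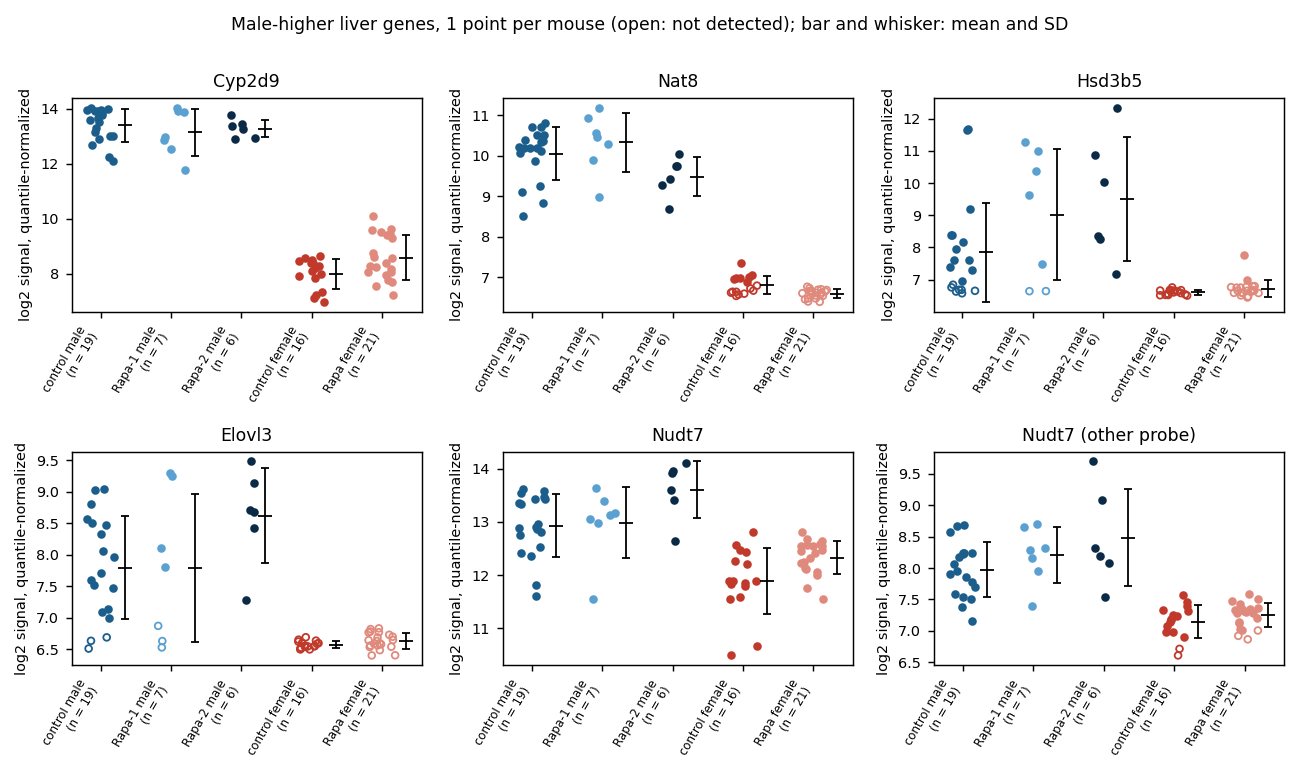
Quantile-normalized log2 signal (vertical axis) of the 6 probes in the 5 title groups (horizontal axis), with 1 point per mouse, filled where the probe was detected and open where it was not, and a bar and whisker for the mean and SD of each group. Males and females do not overlap for Cyp2d9 and Nat8, whereas Hsd3b5 spans from undetected to 12.34 among males.

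The sex difference was tested in mice that the choice of genes had not used, by setting Rapa females against all 13 Rapa males. All 6 probes were lower in Rapa females (limma, adjusted p under 0.05 and a change over 15%), where 17.8% of the tested probes were lower. Nat8, Hsd3b5 and Elovl3 passed the detection filter through the male arrays, where they are high, so the count over the 6 probes is a description. The adjusted p-values given for Nat8, Hsd3b5 and Elovl3 are descriptions too. Cyp2d9 differed by -4.63 ± 0.25 (log2 difference ± SE, adjusted p = 6.89e-16), with 21 of 21 females below the male mean and no overlap. Nat8 was at least 7.74-fold higher in the Rapa males (adjusted p = 5.74e-18) and Elovl3 at least 2.27-fold higher (adjusted p = 6.47e-07), since neither was detected in a Rapa female. Hsd3b5 differed by -2.52 ± 0.40 (adjusted p = 3.49e-06) in its measured signals, with the probe detected on 2 of 21 Rapa female and 11 of 13 Rapa male arrays. The 2 probes of Nudt7 differed by -0.94 ± 0.16 (adjusted p = 1.0e-05) and -1.08 ± 0.14 (adjusted p = 8.51e-08), with overlapping groups. Of 21 tested genes on a list of other male-biased liver genes, 16 were also lower in Rapa females and 0 higher, with a median log2 difference of -1.58 beside 0.06 over all tested probes. Mup21, a urinary protein gene, differed by -3.54 ± 0.29, Cyp7b1, an oxysterol hydroxylase, by -1.83 ± 0.15 and Cyp4a12a, a fatty acid hydroxylase detected on 3 of 21 Rapa female arrays, by -4.33 ± 0.38.

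Whether rapamycin shifted these genes was asked separately in each sex. In females, 3 of the 6 probes passed, beside 38.4% of all tested probes, so the share is of the order of the background. The control females also entered the choice of the genes, by their low level, so a rise over them is not independent of that choice. Cyp2d9 rose by 0.59 ± 0.23 (adjusted p = 0.0266), and 16 of 21 Rapa females lay above the control mean. Nudt7 rose by 0.44 ± 0.15 (adjusted p = 0.0128), with 19 of 21 above, while its other probe gave 0.10 ± 0.07 (adjusted p = 0.231). Before scaling, the raw medians were 317 in control and 275 in Rapa females for Cyp2d9 and 3751 and 3577 for Nudt7, lower in Rapa females for both. Both changes shrank when arrays were scaled to a common median, which moved the median of all tested probes from 0.03 to -0.20 and the share of passing probes that were higher from 51.9% to 1.33%. The log2 differences were then 0.21 for Cyp2d9 and 0.07 for Nudt7, or 0.41 and 0.27 relative to that median, and neither passed. Nat8 read lower by -0.22 ± 0.06 (adjusted p = 0.000949), but it was not detected on any Rapa female array and gets no fold. Hsd3b5 (0.11 ± 0.07, adjusted p = 0.168) and Elovl3 (0.06 ± 0.04, adjusted p = 0.155) did not pass, at signals near the background in both groups. Without control female 4 the adjusted p of Cyp2d9 was 0.0511. The neutrophil list moved in the same comparison, with 5 of 5 markers lower in Rapa females. Its summed signal ran from 730.5 to 55340 in control and from 530.2 to 25080 in Rapa females, and its part in the values above was not tested.

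In males, 0 of the 6 probes passed by limma when all 13 Rapa males were set against the control males, beside 10.6% of the tested probes. At an unadjusted p under 0.05 there were 2, Hsd3b5 and the other Nudt7 probe. The share of all tested probes at that unadjusted cutoff was not counted in any comparison, so such counts have no background beside them. Hsd3b5 gave the widest difference, 1.39 ± 0.59 (95% interval 0.19 to 2.58, adjusted p = 0.0943), with 9 of 13 Rapa males above the control mean. The interval of Cyp2d9 ran from -0.63 to 0.25, that of Nat8 from -0.60 to 0.38 and that of Elovl3 from -0.27 to 1.02. Nudt7 gave 0.34 ± 0.21 (adjusted p = 0.274) and 0.36 ± 0.18 (adjusted p = 0.149) by its 2 probes. A limma fit of all 5 groups in 1 model, which shares the spread between the sexes, passed Hsd3b5 and the other Nudt7 probe. Rapa-1 males alone gave 0 of 6 by limma, beside 0.378% of the tested probes, and also 0 at an unadjusted p under 0.05. Their largest difference was again Hsd3b5 (1.16 ± 0.70, adjusted p = 0.473). These comparisons share the control males with each other and with the choice of the genes.

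Rapa-2 males stood apart from the other males in their overall profile, with 36.3% of the tested probes passing against control males, 20.9% higher and 15.4% lower. Of the 6 probes, 1 passed. Nudt7 was higher by 0.67 ± 0.26 (adjusted p = 0.0315), or 1.59-fold, in 5 of 6 arrays, and its other probe gave 0.51 ± 0.23 (adjusted p = 0.0722). Hsd3b5 gave 1.66 ± 0.72 (adjusted p = 0.0587) and Elovl3 0.82 ± 0.36 (adjusted p = 0.0574), each with 5 of 6 arrays above the control mean. Nat8 gave -0.56 ± 0.28 (adjusted p = 0.0929) and Cyp2d9 -0.12 ± 0.25 (adjusted p = 0.716). The call of Nudt7 was lost without Rapa-2 male 2, 3, 5 or 6, with adjusted p from 0.0527 to 0.0907. Without Rapa-2 male 4, which read lowest by 5 of the 6 probes, Nudt7, its other probe, Hsd3b5 and Elovl3 all passed, at 0.86, 0.70, 2.12 and 1.09. Hsd3b5 also passed without control male 1 or 18 or Rapa-2 male 3, Elovl3 without control male 1, 9, 10, 11 or 16, and Nat8 without control male 4 or 19. Under median scaling 0 of 6 passed, and 34.8% of the passing probes were then higher in place of 57.5%. Rapa-2 arrays were also the dimmest. The raw medians of Cyp2d9 were 14990 in control and 8942 in Rapa-2 males, and those of Nudt7 were 10279 and 11721.

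The direct comparison of both Rapa male titles gave 1 of 6, beside 34.0% of the tested probes. Nat8 was lower in Rapa-2 than in Rapa-1 males by -0.84 ± 0.31 (adjusted p = 0.0465), in 6 of 6 arrays against the Rapa-1 mean. These titles differ in number order as well, as stated above. This call held in only 3 of 13 fits that left out 1 array, with log2 differences from -1.06 to -0.68, and it was lost without any of Rapa-1 males 1, 2, 3, 6 and 7 or Rapa-2 males 1, 2, 3, 4 and 6. Nudt7 passed only without Rapa-2 male 4, at 0.81 (adjusted p = 0.0379). The interaction of diet and sex, which tests whether the diet effect of females differed from that of males, passed for 0 of 6 probes by limma, beside 17.5% of those tested. At an unadjusted p under 0.05 there were 2, and the share of all probes at that cutoff was not counted. The interaction came nearest for Cyp2d9 (0.78 ± 0.32, adjusted p = 0.0733) and Hsd3b5 (-1.28 ± 0.56, adjusted p = 0.0895). The rise of Cyp2d9 in females and its lack in males were thus not shown to differ.

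**Figure D2:**
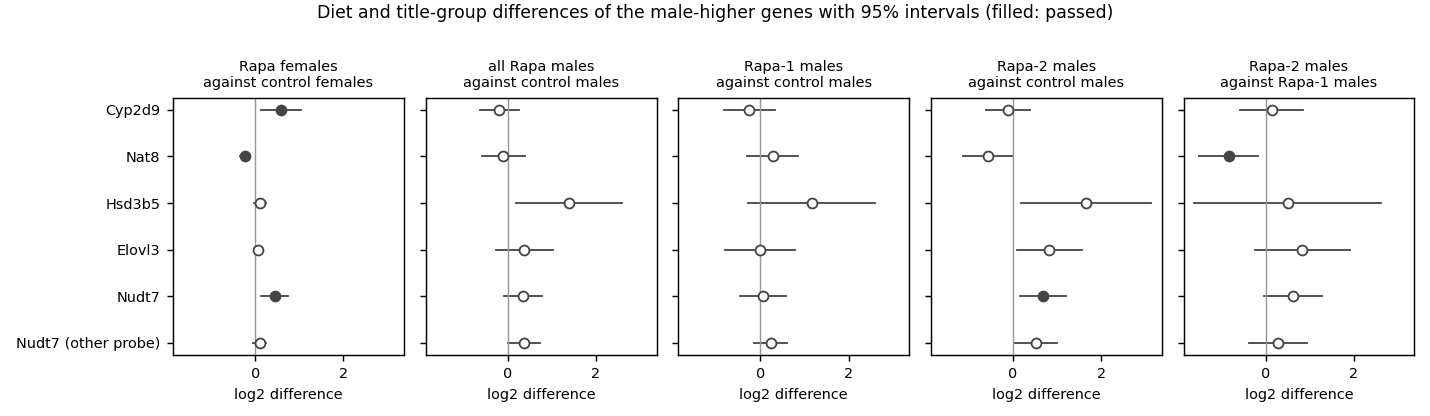
Log2 differences (horizontal axis) of the 6 probes (vertical axis) in 5 comparisons, with 95% intervals from limma as lines and filled points for those that passed. The filled points are Cyp2d9, Nat8 and Nudt7 in females, Nudt7 in Rapa-2 against control males and Nat8 in Rapa-2 against Rapa-1 males.

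The genes were then set beside the other probes with a male-higher signal. The larger set was defined on the control arrays, by a log2 difference over 1 in favour of males at adjusted p under 0.01 (limma). It held 332 other probes. The 5 genes met the same cutoff, Nudt7 by its brighter probe, but they were chosen by this difference, so that is a description. In Rapa-2 against control males, 287 of the 332 (86.4%) were lower and 5 higher, with a median log2 difference of -1.52, while 0 of the 6 probes of the 5 genes were lower and their median was 0.59. The median of all tested probes was 0.09. In Rapa-1 against control males, 1 of the 332 passed and was higher, in all Rapa males 232 were lower, and in Rapa against control females 225 (67.8%) were lower and 13 higher. Of all tested probes, 7.52% were lower in all Rapa males and 18.5% in Rapa females. Against Rapa-1 males, 286 of the 332 were lower and 1 of the 6, beside 14.8% of all tested probes, with medians of -1.59 and 0.39. Rapa-1 arrays did not define the set, but the study drew both titles from the expression values of these arrays. This count is therefore not independent of the one against control males. Under median scaling the counts against control males were 286 and 0, and with neqc background correction 287 and 0. The larger set was defined between brighter control male arrays (mean raw median 129.96) and dimmer control female arrays (104). Rapa-2 arrays were the dimmest (89.0), while Rapa-1 arrays averaged 124. Rapa female arrays averaged 102, near the control females. The part of array brightness and of number order in these counts was not tested. All 6 Rapa-2 males lay above the highest control female for Cyp2d9, Nat8, Hsd3b5 and Elovl3, and 5 of 6 for either Nudt7 probe. Control females entered the choice of the genes by their low level, and Hsd3b5 and Elovl3 were detected on 0 of their 16 arrays. The share of all tested probes with such a gap was not counted, so this is a description. In Rapa females against Rapa males the larger set did fall with the 5 genes, with 328 of 332 lower. The 5 genes are few and were listed with earlier results known, so the contrast with the larger set is a description. The list of 21 other male-biased liver genes gave 6 higher and 3 lower in Rapa-2 against control males, with a median of 0.22, and 2 higher and 3 lower under median scaling. Not every gene of that list was male-higher on these arrays, with Lifr and Gna14 among the exceptions, so it is not a set like the 332 probes. Ugt2b1, a glucuronosyltransferase, fell by 2.25 (± 0.23, adjusted p = 8.16e-09) and Sult2a8, a sulfotransferase, fell by 1.96 (± 0.45, adjusted p = 0.000802). Lifr, a cytokine receptor, was higher by 0.22 ± 0.05 (adjusted p = 0.00076), but its mean was 6.98 in control males and 7.39 in control females.

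**Figure D3:**
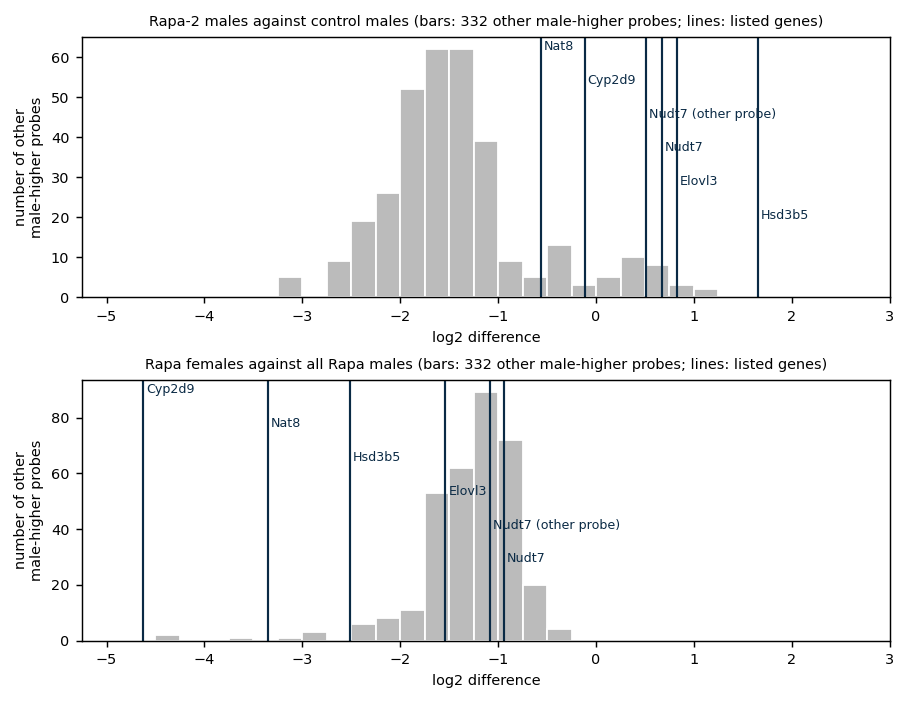
Distribution of log2 differences (horizontal axis) of the 332 other male-higher probes (bars, number of probes in steps of 0.25) with the 6 probes of the 5 genes as lines, for Rapa-2 males against control males and for Rapa females against all Rapa males. In the upper panel the bars centre near -1.52 and the lines lie between -0.56 and 1.66, and in the lower panel all 6 lines lie below 0.

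Relatives of the 5 genes did not move as one. Of 6 tested Cyp2d genes besides Cyp2d9, Cyp2d26 (-1.31 ± 0.10, adjusted p = 1.94e-11) and Cyp2d13 (-1.07 ± 0.15, adjusted p = 1.48e-06, detected on 5 of 6 Rapa-2 arrays) were lower in Rapa-2 than in control males and the other 4 did not pass. In Rapa females, Cyp2d10 (0.28 ± 0.06) and Cyp2d22 (0.24 ± 0.07) were higher and Cyp2d26 (-0.66 ± 0.10) lower than in control females. Among the relatives of Nat8, Nat8f1 (-0.64 ± 0.20) and Nat8f2 (-0.59 ± 0.10), were lower in Rapa-2 males, and Nat8f4 (0.62 ± 0.17) was higher in Rapa females. Hsd3b2, another hydroxysteroid dehydrogenase, was lower under Rapa in females (-0.72 ± 0.08) and in the Rapa-2 group (-0.69 ± 0.12), whereas the bile acid enzyme Hsd3b7 did not pass in either. Of 9 other tested genes of fatty acid elongation, 1 was higher and 2 lower in Rapa-2 against control males, and 2 were higher and 2 lower in Rapa against control females. Elovl2 was lower in Rapa-2 males by -1.83 ± 0.15 (adjusted p = 8.14e-11) and Elovl1 higher by 0.41 ± 0.10. In Rapa females Hsd17b12, a reductase of the elongation cycle, was among the lower genes, by -0.59 ± 0.10.

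Nudt7 sits between coenzyme A turnover and peroxisomal fatty acid oxidation. Of 12 tested genes of coenzyme A turnover, 3 were higher and 3 lower in Rapa-2 against control males, and 5 and 3 in Rapa against control females. Pank3, a pantothenate kinase that starts coenzyme A synthesis, read lower in both (-0.44 ± 0.07 and -0.46 ± 0.06), with its probe detected on 1 of 6 Rapa-2 and 1 of 21 Rapa female arrays, and the peroxisomal hydrolase Nudt19, which acts on the same substrates as Nudt7, was higher in Rapa-2 males by 0.27 ± 0.06. Of 15 tested genes of peroxisomal oxidation, 8 were higher and 2 lower in Rapa females, with a median log2 difference of 0.27 beside 0.03 over all probes, and the counts of list genes in females rest on the quantile scaling, since nearly all passing probes were lower under median scaling. Acox3, an acyl-CoA oxidase (0.32 ± 0.04), the import receptor Pex5 (0.56 ± 0.08) and Decr2, a peroxisomal reductase (0.74 ± 0.17), were higher, and catalase, Cat (-0.89 ± 0.14), was lower.

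Among 19 tested genes of growth hormone signalling and sex-biased control, 5 were higher and 6 lower in Rapa against control females. The growth hormone receptor Ghr (-0.86 ± 0.13, adjusted p = 1.21e-06) and its feedback inhibitor Socs2 (-1.33 ± 0.22, adjusted p = 2.66e-06) were lower, and Stat5a was higher by 0.47 ± 0.08. In Rapa-2 against control males, 5 were higher and 4 lower. The oestrogen receptor Esr1, detected on 19 of 19 control male and 0 of 6 Rapa-2 arrays, was at least 1.67-fold higher in control males (adjusted p = 2.07e-09), and the pioneer factor Foxa1 was higher in Rapa-2 males by 0.85 ± 0.16. Counts of these lists are set beside 38.4% of all probes in females and 36.3% in Rapa-2 males.

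How far the genes varied together was measured within control males, on the arrays that also entered the choice of genes by their mean level. Over 10 pairs of genes in 19 mice, 5 pairs passed a two-sided permutation test after Benjamini-Hochberg adjustment. Hsd3b5 was detected on 12 and Elovl3 on 16 of these 19 arrays, so pairs with either gene rest partly on readings near background. With neqc 7 pairs passed, adding Nat8 with Hsd3b5 and Hsd3b5 with Elovl3, and under median scaling 6 passed, adding the latter. Cyp2d9 and Nat8 gave Pearson r = 0.81 (permutation p = 0.00011, adjusted 0.000367) and Spearman rho = 0.67 (p = 0.00265, adjusted 0.00662, by permutation). Cyp2d9 and Elovl3 gave r = 0.80 (permutation p = 3e-05, adjusted 0.0002) and rho = 0.73 (p = 0.0007, adjusted 0.0035, by permutation). Nat8 and Elovl3 gave r = 0.79 (permutation p = 4e-05, adjusted 0.0002) and rho = 0.76 (p = 0.00025, adjusted 0.0025, by permutation). Mice with much of 1 of these 3 transcripts had much of the others. Nat8 and Nudt7 gave r = 0.72 (permutation p = 0.00068, adjusted 0.0017) and rho = 0.62 (p = 0.00575, adjusted 0.0115, by permutation). Cyp2d9 and Hsd3b5 gave r = 0.59 (permutation p = 0.00935, adjusted 0.0187) and rho = 0.69 (p = 0.00121, adjusted 0.00403, by permutation). Without the 2 mice farthest from the median of the first gene, r was 0.71, 0.72, 0.73, 0.56 and 0.60 for the 5 pairs in that order. Within the lower run of animal numbers (n = 7) r was 0.86, 0.81, 0.78, 0.78 and 0.57, and within the higher run (n = 12) it was 0.75, 0.81, 0.83, 0.68 and 0.60.

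Hsd3b5 and Elovl3 came close, at r = 0.49 (permutation p = 0.0304, adjusted 0.0506) with rho = 0.60 (p = 0.00781, adjusted 0.013, by permutation). The runs of numbers differed for this pair, with r = 0.92 in the lower and 0.18 in the higher run. The other 4 pairs, all with Nudt7 or with Hsd3b5 against Nat8, had r from 0.40 to 0.44 and adjusted permutation p from 0.0703 to 0.0896. Control males 1 and 18 held the highest Hsd3b5 readings of 11.64 and 11.69. Among Rapa males, Rapa-1 male 5 read lowest by 4 of the 6 probes and Rapa-2 male 4 by 5 of 6, so the low readings fell largely in the same mice.

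**Figure D4:**
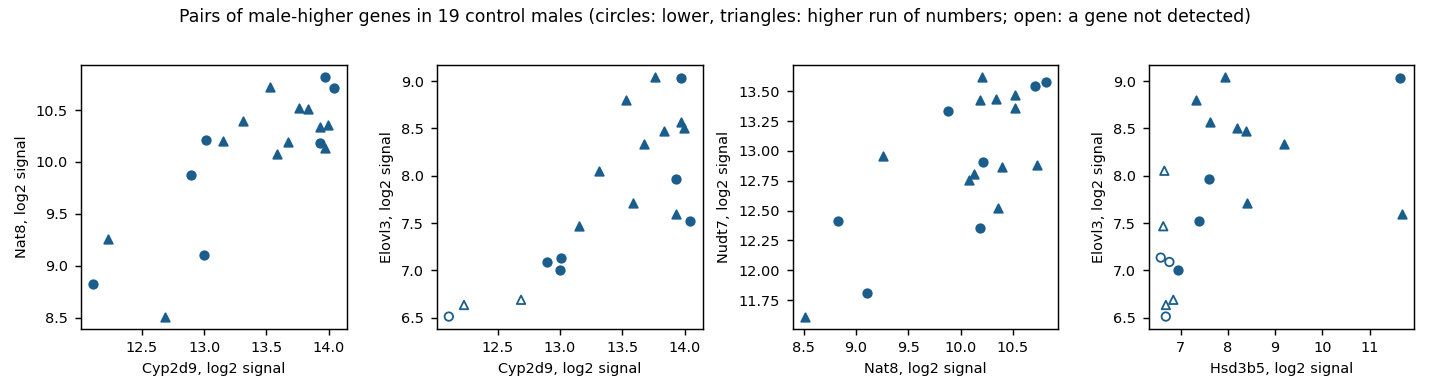
Log2 signals of 4 pairs of genes in the 19 control males, with 1 point per mouse, circles for the lower and triangles for the higher run of animal numbers, and open points where a gene of the pair was not detected. Cyp2d9 rises with Nat8 (r = 0.81) and with Elovl3 (r = 0.80), Nat8 with Nudt7 (r = 0.72), and the points of Hsd3b5 and Elovl3 are more scattered (r = 0.49).

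Other genes with the most similar pattern were named from residuals, the signals of 69 arrays after the mean of each title group had been taken away. These correlations share arrays and scaling and are given as a description. Closest to Cyp2d9 were Eps8l2 (r = 0.69), Mup21 (0.63) and the drug-metabolizing P450 Cyp3a11 (0.62). Closest to Nat8 were Elovl3 (0.73), Gm4956 (0.70) and the mitochondrial transporter Abcb10 (0.69). Elovl3 in turn followed Cyp4a12b (0.78) and Cyp4a12a (0.77), fatty acid hydroxylases on the list of male-biased genes, and Gm4956 (0.74). Hsd3b5 followed Ttc39c (0.72), the P450 Cyp2u1 (0.70) and the caveolae protein gene Cav1 (0.69). Nudt7 followed Sc5d, a sterol desaturase (0.76), Cyb5b (0.75) and Aacs, which activates acetoacetate (0.75), and its other probe with Spsb4 (0.65), Abcb10 (0.64) and Serpina4-ps1 (0.63).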

How the data were processed

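Total liver RNA of 69 mice was hybridised to Illumina MouseRef-8 arrays, 1 array per mouse. The authors deposited raw probe intensity values with a detection score per array, held as a fraction (1 minus the detection p), and processed log2 values after quantile normalization. Here the raw intensities were quantile-normalized and log2-transformed, and the result correlated with the deposited log2 values at r of at least 0.99992. Probes detected at p under 0.05 on at least 13 arrays were kept (12442, for 8729 genes). Each comparison was fitted across all kept probes in limma 3.58.1 (R 4.3.3), with Benjamini-Hochberg adjustment over all of them, and passed at adjusted p under 0.05 and a change over 15%. Correlations used 100000 permutations (scipy 1.17.1, Python 3.11.15). The fits were tested on simulated data. "At least" folds take an undetected probe at the lowest detected signal of its array. P-values set a difference or a correlation against the spread between mice, and they do not separate diet or title from number order. The number of arrays limits the precision. The members and lists were chosen with earlier results of these data known. Of each list, up to 4 passing genes with the smallest adjusted p were named per comparison, plus any tested relative of a member and 3 genes of most similar pattern. Alternatives varied the normalization, filters, variance model, covariates, number runs and arrays left out. Probe sequences were not used here.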

Additional observations from a re-analysis of the deposited data

Results flagged for a closer look

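Nudt7 in Rapa-1 male 5 stood far from the other 6 Rapa-1 males. Its log2 signal of 11.5563 was the lowest of the 7, and its gap to the next mouse took 0.685 of the range of the group, past the critical value for 7 samples. The 24 such checks took the highest and the lowest array of each of the 6 probes in Rapa-1 and in Rapa-2 males. Chance passes about 1 in 20 groups, so 1 pass among these checks can arise by chance. The same mouse read lowest by 4 of the 6 probes.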

How the results depend on the processing

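All 6 probes stayed lower in Rapa females than in Rapa males in 14 of 14 alternatives. In females, the count of 3 became 0 under median scaling or with the detected share as a covariate, and 1 with a 1.5-fold minimum, with controls of the lower number run or with the number run as a random block. For Rapa-2 against control males, the count of 1 became 2 with neqc, 5 with 1 model of 5 groups, and 0 with no detection filter, median scaling, separate variances, controls of the higher number run, or the raw array median or share detected as a covariate. Between the Rapa titles, the count of 1 became 2 with 1 model, and 0 with no filter, median scaling, pooled or separate variances, or the raw median covariate. All Rapa males went from 0 to 2 with 1 model, and the interaction from 0 to 1 with the raw median covariate. The cause was not tested. Raw medians of Rapa-2 arrays (84.0 to 96.8) did not overlap those of Rapa-1 (116.8 to 130.8) or control male arrays (113.8 to 146.0). In comparisons of Rapa-2 males, fits with that covariate therefore cannot separate title from brightness.

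Leaving out each array, chosen after the data were seen, gave counts of 2 to 3 in females, 0 to 4 in Rapa-2 against control males and 0 to 1 between the titles. In females, Nat8 fell under the fold minimum without control female 1 (-0.19).

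Some values that had not passed changed sign. Under median scaling these were the other Nudt7 probe in females (-0.061) and Nudt7 in the interaction (-0.25; -0.13 with the lower run, -0.0725 with the share detected). With the raw median covariate these were Nat8 (0.34) and Elovl3 (-0.0079) in all Rapa males. Between the titles, where that covariate cannot be separated from the title, they were Cyp2d9 (-0.15), Hsd3b5 (-3.94) and the other Nudt7 probe (-0.29). There, leaving out 1 array gave -0.0925 (without Rapa-1 male 5) to 0.29 for Cyp2d9 and -0.0713 (without Rapa-2 male 6) to 0.96 for Hsd3b5. Elovl3 in Rapa-1 males was 0.32 in the lower run, and Cyp2d9 in Rapa-2 males 0.0039.

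Replicate numbers in the labels were not taken as pairs. For same-numbered mice r passed 0.1 in 5 of 16 pairs in females, 2 of 7 in Rapa-1 and 3 of 6 in Rapa-2 against control males. Between the titles it did so in 5 of 6 (median r 0.19), so some likeness by number remained there. With the replicate block the counts were 3 in females, 0 in all Rapa males, 0 in Rapa-1, 1 in Rapa-2, 1 between the titles and 6 between the sexes. Elovl3 in Rapa-1 males (0.32) and Nat8 in all Rapa males (0.0126) changed sign under the block. Signals near background limit Hsd3b5 and Elovl3 in females.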
